A study of Mus musculus with 23 samples.

Results

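The 43 genes described here encode proteins of the lysosome, and all 43 symbols were found among the 33280 gene symbols of the count table. They were divided by role into 14 lysosomal proteases (12 cathepsins, legumain and tripeptidyl peptidase 1), 7 glycan hydrolases, 9 lipid hydrolases and lipid-binding cofactors, 7 membrane proteins, 5 subunits of the proton pump and the transcription factor gene Tfeb. Grn, which encodes progranulin, was counted with the lipid genes although its product is not a lipid hydrolase. The study sorted brain macrophages from Ccr2creERT2/+ R26tdT/tdT mice 1 day after an ischemic stroke that was induced by thrombin in the middle cerebral artery. Microglia (MG, CD45int CD11b+ CD206-) and subdural CNS-associated macrophages (sdCAMs, CD45int CD11b+ CD206int-high) were taken from a coronal brain slice without choroid plexus, and the sdCAMs were divided by the fluorescent protein tdTomato (tdT). According to the study's methods, the sort also left out cells that stained for Ly6C, Ly6G or CD11c. The mice had received vehicle (CTL) or BLZ945 by gavage (7 days, 200 mg/kg). BLZ945 blocks CSF1R, the receptor on which brain macrophages depend for survival. The stroke followed 8 weeks after the last gavage. All groups received tamoxifen (2 mg per day) around the end of the gavage, all carried the same alleles, and all had a stroke, so that no group without stroke was compared.

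The groups were MG CTL, MG BLZ945, tdT- CTL and tdT- BLZ945 with 5 libraries each and tdT+ BLZ945 with 3. In this model Cre is driven from the Ccr2 locus, so tdT marks cells that expressed this monocyte receptor gene around the tamoxifen treatment and their progeny. A tdT- cell is not shown to be of resident origin. No tdT+ library of CTL mice was analysed here. The libraries are named F1, F2, F3, M1 and M2 as in the sample titles, and values per library are given in this order (F2, F3 and M2 for tdT+). Each CTL library came from 1 animal, whereas BLZ945 libraries held 2 pooled animals except for the F2 libraries with 1, so pooling went with treatment. The same animal number stood in the library names of both F2 and M1 of the BLZ945 mice, so that their independence could not be checked. Libraries held 9433960 to 13276081 counts assigned to genes. The summed CPM of 4 MG markers (P2ry12, Tmem119, Sall1 and Siglech) was 6346 to 11120.0 in MG and 484 to 1055 in sdCAMs. That of 6 sdCAM markers (Mrc1, Cd163, Lyve1, F13a1, Cbr2 and Ms4a7) was 9.93 to 45.7 in MG and 10004 to 15444 in sdCAMs. Each sorted population thus carried its own markers. MG transcripts were nevertheless present in sdCAM libraries, at shares that differed between markers. Relative to the mean in MG of the same treatment, sdCAM libraries had 5.54% to 9.57% for P2ry12 and 0.629% to 3.96% for Tmem119. The range was 0.0731% to 6.68% for Sall1 and 6.41% to 42.7% for Siglech. The Siglech mean was 11.3% in tdT- CTL and 26.5% in tdT- BLZ945. The other means did not rise, at 8.47% and 8.00% for P2ry12, 1.88% and 0.937% for Tmem119 and 3.35% and 0.772% for Sall1. The part of such transcripts in the values below was not tested.

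Lysosomes degrade material taken up by phagocytosis, endocytosis and autophagy. Their soluble hydrolases work at acid pH, which the V-type proton pump maintains, while heavily glycosylated membrane proteins such as LAMP1 and LAMP2 shield the membrane. The transcription factor TFEB and its relatives MITF, TFE3 and TFEC bind a short palindrome in the promoters of many lysosomal genes, and TFEB raises the transcription of such genes. Macrophages of the brain use this compartment to break down myelin, cell debris and lipoproteins, and cathepsin S also processes the invariant chain for MHC class II presentation.

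Promoter windows of 300 bases (250 before and 50 from the annotated start, RefSeq, build GRCm38.p6) were searched for the TFEB family palindrome TCACGTGA. This palindrome is known from promoters of lysosomal genes, so its share among such genes is a description and not a test. A window was on hand for 36 of the 43 genes, and 6 of these (16.7%) held the palindrome, against 1.12% of all 27025 genes with a window. The 7 members without one were Ctsb, Ctse, Ctsh, Asah1, Npc1, Atp6v0d2 and Atp6v1b2. The shorter E-box CACGTG, which lies inside the palindrome, was found in 12 of the 36 genes (33.3%) and in 8.09% of all genes. Both motifs read the same on either strand. A match describes the sequence and does not show that a factor binds there. The 6 promoter stretches with the palindrome (in capitals) are shown because these members belong to different roles. As given below, in CTL mice Ctsa, Mcoln1, Atp6v0d1 and Atp6v1a were higher in tdT- sdCAMs than in MG, and Ctsd was lower. Gla had a positive log2 fold change but did not pass the test. The stretches lie at chr2:164833734-164833810 (Ctsa, plus strand), chr7:142387893-142387952 (Ctsd, minus strand), chr8:3500447-3500506 (Mcoln1, plus strand), chr8:105566035-105566094 (Atp6v0d1, minus strand), chr16:44139358-44139417 (Atp6v1a, minus strand) and chrX:134601167-134601255 (Gla, minus strand), each printed 5′ to 3′ on the strand of its gene:
Ctsa: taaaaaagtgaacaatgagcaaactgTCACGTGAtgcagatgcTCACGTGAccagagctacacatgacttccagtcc
Ctsd: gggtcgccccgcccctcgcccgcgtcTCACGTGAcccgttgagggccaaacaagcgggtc
Mcoln1: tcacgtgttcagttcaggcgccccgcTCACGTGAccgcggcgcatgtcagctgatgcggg
Atp6v0d1: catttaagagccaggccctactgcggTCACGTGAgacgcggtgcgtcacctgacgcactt
Atp6v1a: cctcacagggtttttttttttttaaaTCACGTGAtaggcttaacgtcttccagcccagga
Gla: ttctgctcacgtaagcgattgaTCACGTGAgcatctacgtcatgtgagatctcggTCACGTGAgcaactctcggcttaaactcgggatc

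In Ctsa the first palindrome began 13 bases before the start and in Atp6v0d1 4 bases before it, whereas in Gla the first began 228 bases before the start. As given below, Lamp1 and Lipa both had a higher level in tdT- sdCAMs than in MG. Lamp1 had no complete palindrome but 4 E-boxes (in capitals) in its window at chr8:13158911-13159210 on the plus strand. Lipa had neither motif in its window at chr19:34527425-34527724 on the minus strand. Both windows are printed to show this contrast of sequence, and a relation of the motifs to the levels was not tested:
Lamp1: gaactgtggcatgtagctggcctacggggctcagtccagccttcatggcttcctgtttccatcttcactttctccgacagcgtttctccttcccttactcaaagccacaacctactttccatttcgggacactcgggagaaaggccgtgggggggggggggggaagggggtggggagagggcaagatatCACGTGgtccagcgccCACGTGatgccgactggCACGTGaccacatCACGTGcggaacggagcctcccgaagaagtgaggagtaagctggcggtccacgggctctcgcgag
Lipa: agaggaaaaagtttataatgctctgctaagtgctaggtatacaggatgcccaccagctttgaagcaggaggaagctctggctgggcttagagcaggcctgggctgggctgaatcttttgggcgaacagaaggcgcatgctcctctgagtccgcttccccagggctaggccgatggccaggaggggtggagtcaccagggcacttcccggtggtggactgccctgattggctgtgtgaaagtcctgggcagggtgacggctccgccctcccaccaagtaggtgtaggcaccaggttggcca

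The 43 genes together took 6.73% ± 0.381 (SD, n = 5) of all counts in MG CTL and 6.81% ± 0.222 (n = 5) in MG BLZ945. They took 6.56% ± 0.281 (n = 5) in tdT- CTL, 6.18% ± 0.424 (n = 5) in tdT- BLZ945 and 5.85% ± 0.380 (n = 3) in tdT+ BLZ945. Most of this came from the proteases, which took 4.94% ± 0.311 of counts in MG CTL and 4.20% ± 0.257 in tdT- CTL. The mean log2(CPM + 1) over the 43 genes, in which each gene weighs the same, was 8.53, 8.40, 8.48, 8.39 and 8.49 in the libraries of MG CTL and 8.60, 8.58, 8.61, 8.51 and 8.49 in MG BLZ945. It was 8.77, 8.77, 8.74, 8.83 and 8.74 in tdT- CTL, 8.53, 8.67, 8.64, 8.77 and 8.69 in tdT- BLZ945 and 8.60, 8.51 and 8.65 in tdT+ BLZ945. All tdT- CTL libraries were above all MG libraries on this scale, while the ranges of tdT- BLZ945 and tdT+ BLZ945 overlapped that of MG BLZ945. In this as in every bulk value, fewer cells of a kind and less RNA per cell cannot be told apart.

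**Figure D1:**
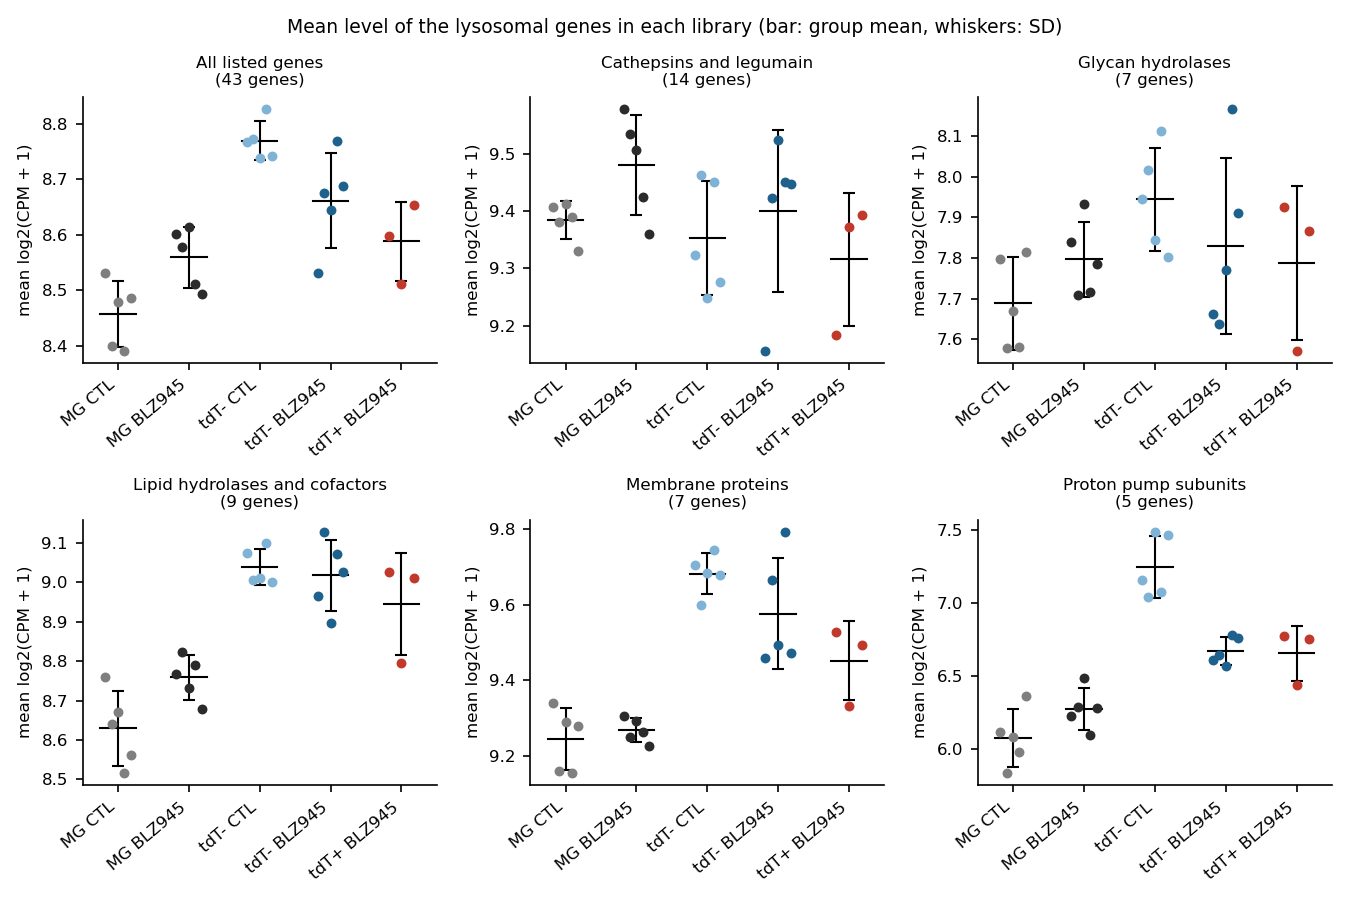
Mean log2(CPM + 1) of all 43 genes and of 5 roles (vertical axes, different scale in each panel and not starting at 0) in each library of the 5 groups (points), with the group mean (bar) and SD (whiskers). The lipid, membrane and pump panels show tdT- CTL libraries above all MG CTL libraries, whereas the ranges of the protease panel overlap.

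By role, the mean log2(CPM + 1) of the proteases was 9.38 ± 0.033, 9.48 ± 0.087, 9.35 ± 0.099, 9.40 ± 0.14 and 9.32 ± 0.12 (SD) in MG CTL, MG BLZ945, tdT- CTL, tdT- BLZ945 and tdT+ BLZ945, with overlapping ranges between all groups compared. In the same order it was 7.69 ± 0.11, 7.80 ± 0.093, 7.94 ± 0.13, 7.83 ± 0.22 and 7.79 ± 0.19 for the glycan hydrolases, which overlapped as well. For the lipid genes it was 8.63 ± 0.095, 8.76 ± 0.056, 9.04 ± 0.046, 9.02 ± 0.09 and 8.94 ± 0.13, and tdT- libraries were above MG libraries of the same treatment without overlap. The membrane proteins, at 9.24 ± 0.082, 9.27 ± 0.032, 9.68 ± 0.054, 9.58 ± 0.15 and 9.45 ± 0.10, and the pump subunits, at 6.07 ± 0.20, 6.27 ± 0.14, 7.24 ± 0.21, 6.67 ± 0.096 and 6.65 ± 0.19, had the same separation in both treatments. In these 2 roles the tdT+ libraries lay below all tdT- CTL libraries, for the pump subunits only as long as the scarce Atp6v0d2 was included.

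Per length of transcript (CPM per kb of exons), the most abundant member was Ctss, which encodes cathepsin S, with 7959 in MG CTL and 3488 in tdT- CTL. In MG CTL it was followed by Ctsd (4175), Ctsz (2172), Lgmn (2058) and Ctsb (1585). In tdT- CTL the order after Ctss was Ctsb (2706), Cd68 (2349), Ctsd (1814) and Ctsz (1444). The remaining extreme was formed by 3 members that were near the detection limit in most libraries, since Ctse had 0 to 7.59 CPM, Ctsk 0 to 9.30 CPM and Atp6v0d2 0 to 9.12 CPM over the 23 libraries.

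The comparison of tdT- sdCAMs with MG in CTL mice asked how lysosomal transcripts of border macrophages differed from those of parenchymal microglia after stroke. All 43 genes passed the filter on low counts. In tdT- sdCAMs 21 genes were higher and 9 lower (edgeR quasi-likelihood test, Benjamini-Hochberg adjusted p below 0.05 over 12697 genes), beside 25.6% of all tested genes called, 15.3% higher and 10.3% lower (1942 and 1312 genes). When libraries were scaled by their totals only, 1663 genes were higher and 1715 lower and the median of all genes was -0.13, and 29 members were called. The median log2 fold change (log2FC) was 0.54 over the 43 genes and -0.0070 over all genes. The CPM ranges of the groups did not overlap for 31 members, of which 22 were above and 9 below MG, beside 26.8% of all tested genes. By role, 5 of 5 pump subunits, 5 of 7 membrane proteins, 4 of 9 lipid genes, 3 of 7 glycan hydrolases and 4 of 14 proteases were higher, and 6 of 14 proteases, 2 membrane proteins and 1 glycan hydrolase were lower.

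The proteases were divided. Ctsd, which encodes the aspartic protease cathepsin D, had 11864, 8518, 11101, 8224 and 9369 CPM in the MG CTL libraries and 4451, 3911, 3757, 4192 and 5008 CPM in tdT- CTL, so the groups did not overlap and the level was 2.31-fold lower in sdCAMs (log2FC -1.21 ± 0.15 (SE), adjusted p = 1.62e-06). For Ctss, the values were 10582, 11002, 11984, 11311 and 9165 CPM in MG CTL and 4651, 4476, 5284, 4396 and 4875 CPM in tdT- CTL (log2FC -1.20 ± 0.12 (SE), adjusted p = 5.09e-08). Both genes had every sdCAM library below every MG library. Ctsf, a cysteine cathepsin, was lower at 141 ± 29.2 against 280.2 ± 49.1 CPM (mean ± SD, n = 5 each, log2FC -0.99 ± 0.17 (SE), adjusted p = 1.08e-04). The other proteases with lower levels were Ctsl, Ctsz and Lgmn, the last encoding the asparaginyl endopeptidase that activates other cathepsins, with log2 fold changes of -0.81 to -0.55 and adjusted p of 5.10e-04 to 0.00351.

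In the opposite direction, Ctsc, which encodes the dipeptidyl peptidase that activates granule serine proteases, had 1806, 2168, 1927, 1996 and 2198 CPM in MG CTL and 6169.8, 6585, 5967, 7791 and 6194 CPM in tdT- CTL, 3.23-fold higher in sdCAMs (log2FC 1.69 ± 0.12 (SE), adjusted p = 5.62e-10). Ctsb, encoding cathepsin B, had 10395, 7218, 9936, 7013 and 13394 CPM in MG CTL and 17069.6, 16545, 14166, 16474 and 17602 CPM in tdT- CTL (log2FC 0.77 ± 0.17 (SE), adjusted p = 0.00128). The Ctsb groups did not overlap either, although the M2 library of MG stood closest to the sdCAMs. Tpp1, encoding the tripeptidyl peptidase that is deficient in a neuronal ceroid lipofuscinosis, was at 591 ± 38.6 against 374 ± 24.9 CPM (n = 5 each, log2FC 0.66 ± 0.10 (SE), adjusted p = 3.10e-05). Ctsa, encoding the protective protein of beta-galactosidase and neuraminidase, was also higher (log2FC 0.39 ± 0.12 (SE), adjusted p = 0.0157). The Ctsa call was lost without the F3 library of tdT- CTL and with scaling by library totals. Ctsh, an aminopeptidase, and Ctso did not pass the test at 1361 ± 159.9 against 1219.6 ± 256.59 CPM and 134 ± 34.7 against 163 ± 30.0 CPM, and neither did the scarce Ctse and Ctsk. Ctse passed with DESeq2 (adjusted p = 0.0255) and by edgeR without the F2 libraries of BLZ945 mice (0.0455). With 1 library left out its adjusted p reached 0.197.

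The make-up of the cathepsin transcripts differed accordingly. Of the counts of the 12 cathepsin genes, Ctsb took 23.1% ± 4.69 in MG CTL and 41.8% ± 1.90 in tdT- CTL, and Ctsc 4.95% ± 0.685 and 16.7% ± 1.65 (SD, n = 5 each). Ctss took 26.5% ± 3.95 and 12.2% ± 1.40, and Ctsd 23.8% ± 2.43 and 10.9% ± 0.823. In tdT+ BLZ945 sdCAMs Ctsb took 39.5% ± 2.05, Ctsc 15.0% ± 1.69, Ctss 18.5% ± 3.74 and Ctsd 8.25% ± 1.17 (n = 3). These shares count reads and therefore also weigh transcript length. For each of these 4 genes, every sdCAM library of the 3 sdCAM groups lay on the same side of all CTL and BLZ945 MG libraries, except that the highest Ctss share in sdCAMs exceeded the lowest in MG.

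**Figure D2:**
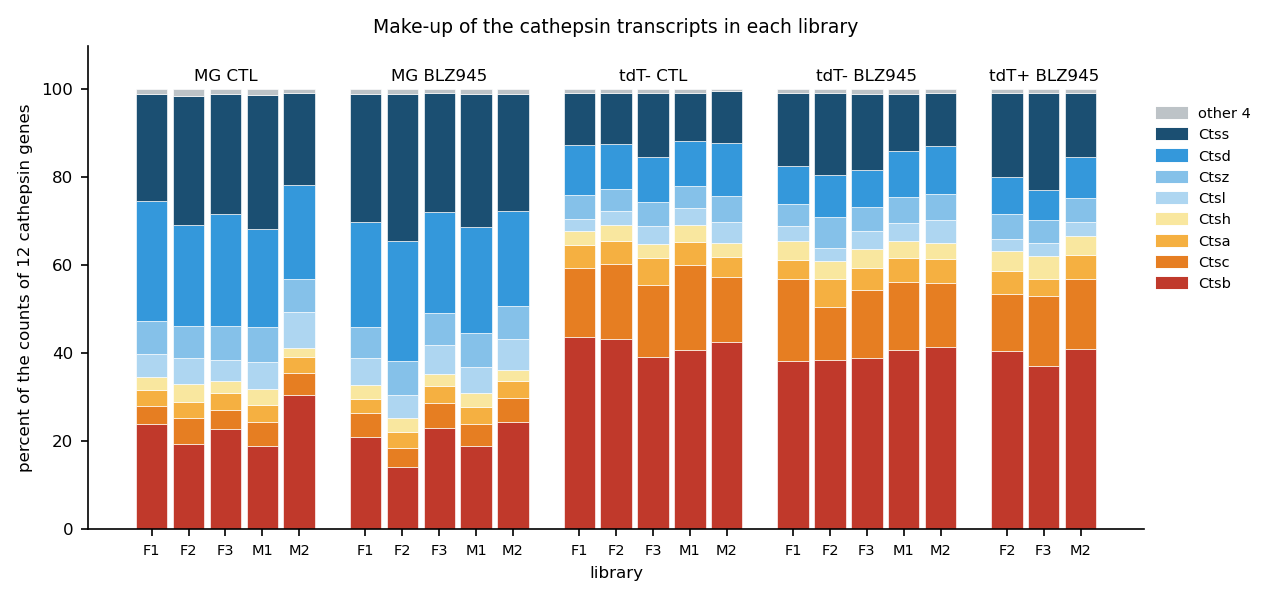
Percent of the counts of 12 cathepsin genes (vertical axis) taken by each gene in each library (1 stacked bar per library, grouped by the 5 groups, with 4 scarce genes summed). Ctsb and Ctsc, in red and orange, take more of every sdCAM bar than of any MG bar, and Ctsd, in mid blue, takes less.

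Among the glycan hydrolases, Hexa, the alpha subunit of beta-hexosaminidase, had 1117, 1018, 1048, 997 and 801 CPM in MG CTL and 1606, 1518, 1391, 1559 and 1362 CPM in tdT- CTL (log2FC 0.57 ± 0.12 (SE), adjusted p = 9.81e-04). Neu1, the lysosomal sialidase, was higher at 179.6 ± 18.9 against 117 ± 19.6 CPM (log2FC 0.62 ± 0.18 (SE), adjusted p = 0.0152). Glb1, the beta-galactosidase, was at 119 ± 20.1 against 81.2 ± 10.1 CPM (n = 5 each, log2FC 0.55 ± 0.14 (SE), adjusted p = 0.00434). Naglu, which removes N-acetylglucosamine from heparan sulfate, was the exception with 192, 185, 179.7, 215 and 187 CPM in MG CTL and 118, 128, 80.4, 138 and 87.4 CPM in tdT- CTL (log2FC -0.80 ± 0.19 (SE), adjusted p = 0.00250). All 4 had ranges that did not overlap. Gla, Gusb and Man2b1 did not pass the test, with log2 fold changes of 0.54 ± 0.38, -0.029 ± 0.095 and 0.18 ± 0.14 (SE). The Neu1 call was lost without the F1 library of tdT- CTL.

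Among the lipid genes, 4 were higher in tdT- CTL and none was lower. Lipa, the acid lipase that hydrolyses cholesteryl esters and triglycerides, had 196, 172, 184, 146 and 297 CPM in MG CTL and 471, 499.5, 523, 553 and 453 CPM in tdT- CTL, 2.51-fold higher with no overlap (log2FC 1.33 ± 0.16 (SE), adjusted p = 1.22e-06). Asah1, the acid ceramidase, had 976, 1006, 911, 951 and 852 CPM in MG CTL and 1831, 1848, 1578, 1918 and 1495 CPM in tdT- CTL (log2FC 0.88 ± 0.11 (SE), adjusted p = 1.85e-06). Grn, encoding progranulin, was at 3051 ± 201 against 1765 ± 179 CPM (log2FC 0.78 ± 0.11 (SE), adjusted p = 1.19e-05). Npc2, the soluble cholesterol carrier, was at 984 ± 48.8 against 671 ± 35.3 CPM (n = 5 each, log2FC 0.55 ± 0.10 (SE), adjusted p = 3.21e-04). Its membrane partner Npc1 (0.26 ± 0.25), the acid sphingomyelinase Smpd1 (0.09 ± 0.16), the thioesterase Ppt1 (0.092 ± 0.10), the GM2 activator Gm2a (-0.10 ± 0.14) and the saposin precursor Psap (-0.26 ± 0.13, all log2 fold change ± SE) did not pass the test.

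All 7 membrane protein genes were called. Cd68, the macrophage sialomucin, had 1463, 1141, 1561, 1176 and 1627 CPM in MG CTL and 2946, 2764, 3578, 2602 and 2874 CPM in tdT- CTL (log2FC 1.08 ± 0.14 (SE), adjusted p = 5.47e-06). Cd63, a tetraspanin of late endosomes, had 1166, 932, 1233, 961 and 2004 CPM in MG CTL and 2428, 2143, 2623, 2379 and 3217 CPM in tdT- CTL (log2FC 1.02 ± 0.19 (SE), adjusted p = 2.27e-04). Lamp1 was 1.94-fold higher at 2289.9 ± 151 against 1179.7 ± 45.5 CPM (log2FC 0.95 ± 0.085 (SE), adjusted p = 1.27e-08). Lamp2 was 1.31-fold higher (log2FC 0.39 ± 0.11 (SE), adjusted p = 0.0119), a call lost with scaling by library totals. Mcoln1, a calcium channel of the lysosomal membrane, was at 66.5 ± 13.4 against 40.9 ± 5.47 CPM (log2FC 0.70 ± 0.22 (SE), adjusted p = 0.0253), with its call lost with scaling by library totals and when MG CTL F3 or M1 or tdT- CTL F1, F3 or M1 was left out. Scarb2, the receptor that carries glucocerebrosidase to the lysosome, was lower at 142 ± 25.8 against 231 ± 36.2 CPM (log2FC -0.71 ± 0.16 (SE), adjusted p = 0.00185). Laptm5, a transmembrane protein of leukocyte lysosomes, was also lower (log2FC -0.42 ± 0.13 (SE), adjusted p = 0.0215). Laptm5 groups overlapped, and its call was lost without MG CTL F1, tdT- CTL F2 or tdT- CTL M1.

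The 5 listed pump subunits were all higher, unlike the further subunits described at the end. Atp6v1a, the catalytic A subunit of the cytosolic V1 part, had 93.2, 54.7, 76.5, 67.0 and 133 CPM in MG CTL and 256, 189.6, 284, 228 and 268 CPM in tdT- CTL, 2.88-fold higher (log2FC 1.52 ± 0.20 (SE), adjusted p = 2.97e-06). Its partner Atp6v1b2 was at 313 ± 32.2 against 178 ± 17.1 CPM (log2FC 0.81 ± 0.14 (SE), adjusted p = 1.21e-04). The membrane part subunit Atp6v0d1 was at 207 ± 24.4 against 119 ± 17.1 CPM (log2FC 0.80 ± 0.12 (SE), adjusted p = 1.43e-05), and the accessory subunit Atp6ap1 at 933 ± 51.6 against 616 ± 19.0 CPM (n = 5 each, log2FC 0.60 ± 0.089 (SE), adjusted p = 2.10e-05). None of these 4 overlapped between the groups. Atp6v0d2, an alternative d subunit known from osteoclasts and alveolar macrophages, had 0, 0, 0.426, 0.424 and 0.766 CPM in MG CTL and 2.61, 2.32, 9.12, 3.42 and 7.95 CPM in tdT- CTL (log2FC 3.91 ± 1.11 (SE), adjusted p = 0.0111), that is 0 to 10 counts per MG library and 30 to 98 per sdCAM library. The summed CPM of 4 dendritic cell markers (Flt3, Zbtb46, Xcr1 and Cd209a) was 3.19 to 8.86 in MG CTL and 222 to 782 in tdT- CTL. Not all 4 rose, since Xcr1 was detected in MG CTL and was at 0 in every tdT- CTL library. Only 1 of the 4 had a mean above 100 CPM in tdT- CTL. The part of these transcripts in the Atp6v0d2 difference was not tested. Tfeb pointed the other way, with 54.6, 53.4, 50.7, 51.5 and 52.6 CPM in MG CTL and 41.2, 35.9, 32.4, 29.4 and 40.6 CPM in tdT- CTL, without overlap but also without passing the test (log2FC -0.55 ± 0.21 (SE), adjusted p = 0.0580). It passed with DESeq2 (adjusted p = 0.0348) and with library totals (0.0229), and over all alternatives and left-out libraries the adjusted p ran from 0.0229 to 0.131.

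**Figure D3:**
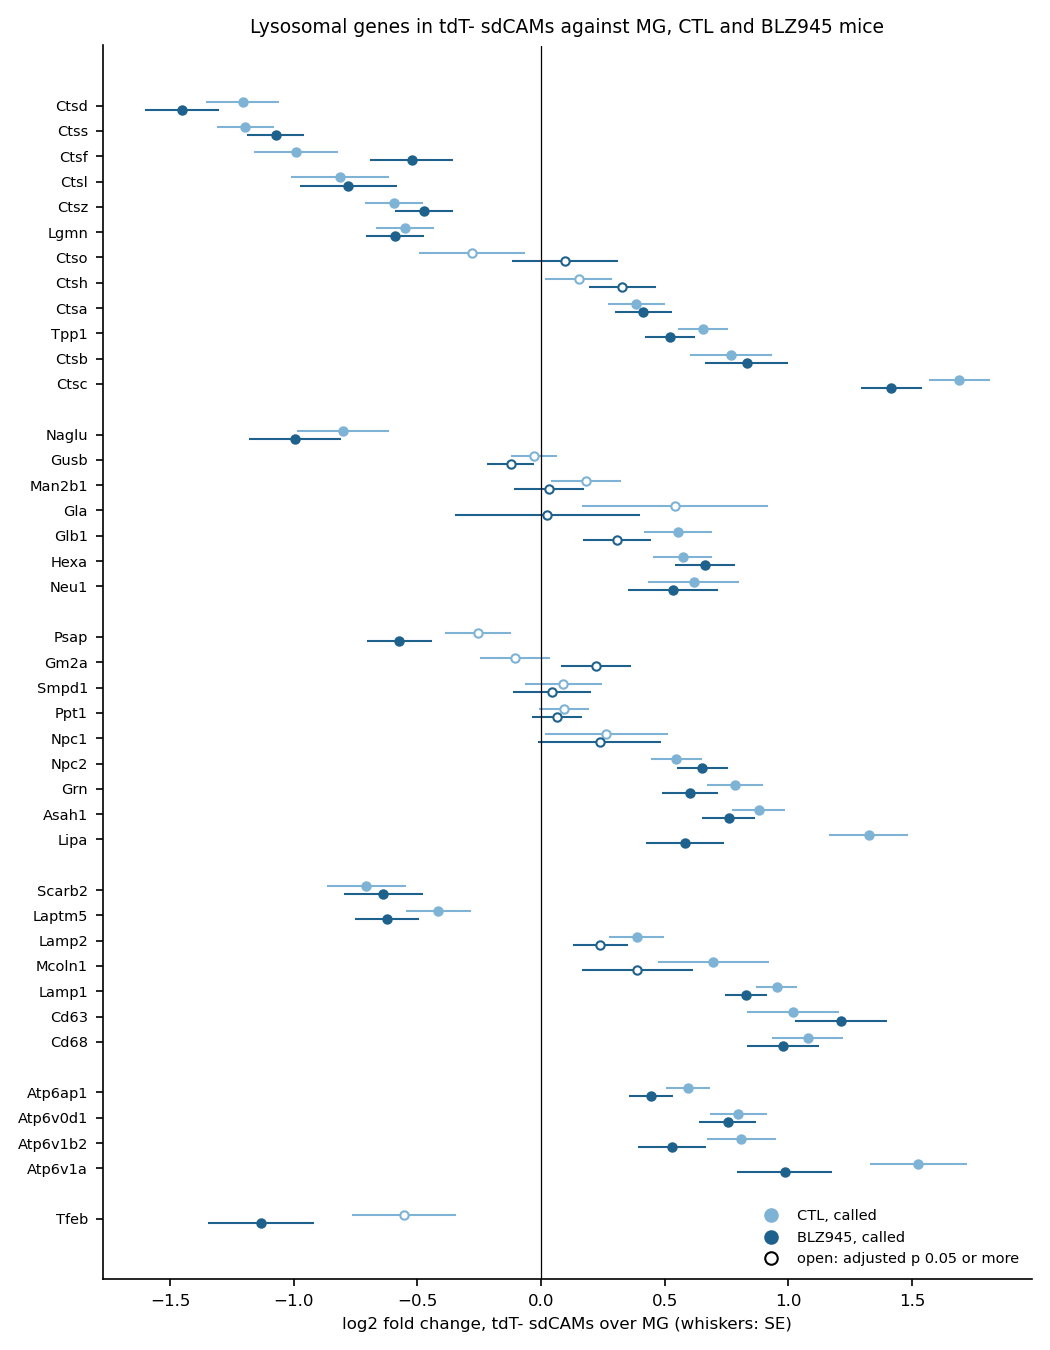
Log2 fold change of tdT- sdCAMs over MG (horizontal axis, whiskers SE) for 40 of the 43 genes, grouped by role and ordered by the CTL value, in CTL mice (light blue) and BLZ945 mice (dark blue). Filled points passed the test, and the 3 scarce genes Ctse, Ctsk and Atp6v0d2 are not drawn. The 4 drawn pump subunits lie to the right of 0, and the proteases run from -1.21 (Ctsd) to 1.69 (Ctsc) in CTL mice.

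In BLZ945 mice, tdT- sdCAMs and MG of the same animals or pools were compared in the same way. Here 18 of the 43 genes were higher and 12 lower, beside 32.4% of all tested genes called, 18.3% higher and 14.1% lower (2324 and 1789 genes). The median log2 fold change was 0.24 over the 43 genes and -0.018 over all genes. When libraries were scaled by their totals only, the balance over all genes turned, with 1881 higher and 2351 lower and a median of -0.17. The member median was then 0.084, and 28 members were called. Ctsa, Ctsk and Neu1, called higher in the main test, were lost and Gusb was gained. With animal or pool as a block, 2033 genes were higher and 2054 lower, and the member median was 0.23. Ranges did not overlap for 25 members (15 above and 10 below MG), beside 22% of all tested genes. Of the 30 genes called in each treatment 27 were shared, 26 of them in the same direction with Atp6v0d2 as the exception. The 2 comparisons used different libraries. By edgeR, Glb1, Lamp2 and Mcoln1 were called in CTL mice alone, and Ctsk, Psap and Tfeb in BLZ945 mice alone, but 0 members were called by edgeR in the test of that difference given below. These lists changed with the setting. DESeq2 also called Glb1 (adjusted p = 0.0414) and Lamp2 (0.0352) in BLZ945 mice and Tfeb in CTL mice, and library totals also called Psap (0.0344) and Tfeb in CTL mice.

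The proteases with the highest called values were Ctsk (4.16 ± 1.54), Ctsc (1.42 ± 0.12) and Ctsb (0.83 ± 0.17), and those with the lowest were Ctsd (-1.45 ± 0.15), Ctss (-1.07 ± 0.12) and Ctsl (-0.78 ± 0.20) (log2 fold change ± SE, adjusted p at most 0.00428 apart from Ctsk). Ctsk, the collagen-degrading cathepsin of osteoclasts, was detected mainly in 2 libraries, with 0, 9.30, 3.07, 0 and 0.110 CPM in tdT- BLZ945 against 0.505, 0.0835, 0, 0.0883 and 0 CPM in MG BLZ945 (adjusted p = 0.0423). Its call was lost in the fit with animal or pool as a block (adjusted p = 0.368), with library totals (0.0503), without a filter on low counts (0.0703) and in the model with all 23 libraries (0.0542). It was also lost without any 1 of 6 libraries (F2 and F3 of tdT- BLZ945 and F2, F3, M1 and M2 of MG BLZ945). Tpp1, Ctsa, Ctsf, Ctsz and Lgmn kept the direction they had in CTL mice, with log2 fold changes of -0.59 to 0.52. The Ctsa call was lost with scaling by library totals (adjusted p = 0.0699). The Ctsf call was lost without tdT- BLZ945 F1, MG BLZ945 F2 or MG BLZ945 M1. Ctsh, at 1549 ± 86.9 against 1242 ± 151 CPM, did not pass (adjusted p = 0.0689) but passed with the block (0.0445) and with DESeq2 (0.0307), and was at 0.332 with library totals.

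Hexa (0.66 ± 0.12) and Neu1 (0.53 ± 0.18) were again higher and Naglu (-0.996 ± 0.19) lower, with adjusted p of 2.05e-04, 0.0297 and 2.87e-04. The Neu1 call was lost with the block (adjusted p = 0.0701), with library totals (0.119) and in the model with all 23 libraries (0.0630). It was also lost without the M1 or M2 library of either population or without MG BLZ945 F2. Of the lipid genes, Asah1 (0.76 ± 0.11), Npc2 (0.65 ± 0.10), Grn (0.60 ± 0.11) and Lipa (0.58 ± 0.16) were higher and Psap (-0.57 ± 0.13) was lower, with adjusted p of at most 0.00706. Psap, which yields the saposins that present sphingolipids to their hydrolases, had 1542, 2137, 1752, 2185 and 1365 CPM in MG BLZ945 and 1151, 1149.6, 1305, 1075 and 1315 CPM in tdT- BLZ945, so every sdCAM library was below every MG library. Of the membrane proteins, Cd63 (1.21 ± 0.19), Cd68 (0.98 ± 0.14) and Lamp1 (0.83 ± 0.084) were again higher and Scarb2 (-0.64 ± 0.16) and Laptm5 (-0.62 ± 0.13) lower, all with adjusted p of at most 0.00379. Lamp2 and Mcoln1, called higher in CTL mice, did not pass by edgeR here. The 4 ubiquitous pump subunits were higher, namely Atp6v1a (0.98 ± 0.19), Atp6v0d1 (0.75 ± 0.12), Atp6v1b2 (0.53 ± 0.14) and Atp6ap1 (0.45 ± 0.089), all with adjusted p of at most 0.00552. For Atp6v0d2 the direction was the reverse of that in CTL mice, with 0.505, 1.17, 1.61, 0 and 0.170 CPM in MG BLZ945 and 0, 0, 0.0904, 0 and 0 CPM in tdT- BLZ945 (log2FC -4.50 ± 1.33 (SE), adjusted p = 0.0123). This was 40 counts against 1, a ratio of 34.5 with an exact 95% interval of 5.85 to 1396 for counting error only, and the ranges overlapped. Tfeb had 53.7, 54.6, 52.6, 46.7 and 46.9 CPM in MG BLZ945 and 33.5, 23.8, 23.7, 10.1 and 23.9 CPM in tdT- BLZ945 and was lower without overlap (log2FC -1.13 ± 0.21 (SE), adjusted p = 3.03e-04).

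The comparison of BLZ945 with CTL asked whether lysosomal transcripts in cells sorted 8 weeks after the gavage differed from those of vehicle-treated mice. In MG, 41 members passed the filter and 0 were called by edgeR, with 2 at an unadjusted p below 0.05 and 1 called by DESeq2, beside 0.408% of all 11264 tested genes called. Over all genes, 13.2% had an unadjusted p below 0.05 and DESeq2 called 1.57%. The CPM ranges of 2 members, Ctse and Grn, did not overlap, beside 3.09% of all genes. Ctse, an aspartic protease of endosomes, had 0, 0, 0.511, 0.339 and 0.153 CPM in MG CTL and 2.52, 3.17, 1.19, 2.30 and 0.933 CPM in MG BLZ945, or 0 to 6 against 11 to 38 counts. It missed the threshold in the edgeR test (log2FC 3.24 ± 0.77 (SE), adjusted p = 0.0785) and passed with DESeq2 (adjusted p = 0.00510, from 0.00510 to 0.813 over the alternatives). Grn had 1903, 1730.1, 1956, 1738 and 1499 CPM in MG CTL and 2003, 2068, 2066, 2184 and 2016 CPM in MG BLZ945 (log2FC 0.21 ± 0.093 (SE), adjusted p = 0.347). The median SE of a member's log2 fold change was 0.11, and apart from Ctse the fold changes lay between -0.18 and 0.36.

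In tdT- sdCAMs, all 43 members passed the filter and 0 were called in BLZ945 against CTL by edgeR, with 4 at an unadjusted p below 0.05 and 2 called by DESeq2, and 0% of the 13076 tested genes were called (697 or 5.33% at an unadjusted p below 0.05, and 62 or 0.349% called by DESeq2). Lipa had 471, 499.5, 523, 553 and 453 CPM in tdT- CTL and 378, 266, 254, 337 and 339 CPM in tdT- BLZ945, so that all BLZ945 libraries were below all CTL libraries (log2FC -0.65 ± 0.15 (SE), adjusted p = 0.377). With DESeq2 its adjusted p was 0.0235, and over the alternatives, each left-out library included, it ran from 0.0235 to 0.898. Atp6v0d2 had the 2.61, 2.32, 9.12, 3.42 and 7.95 CPM given above in tdT- CTL and 0, 0, 0.0904, 0 and 0 CPM in tdT- BLZ945. Summed over the libraries this was 294 counts against 1 count, a ratio of 240.1 in CPM with an exact 95% interval of 42.8 to 9514 that covers counting error only. Its adjusted p was 0.304 with edgeR, 0.0383 with all 23 libraries in the model and 5.38e-05 with DESeq2. These 2 members were the ones whose ranges did not overlap, beside 1.84% of all genes.

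The summed CPM of the 4 dendritic cell markers, with Xcr1 at 0 in every sdCAM library, moved in the same direction, from 222 to 782 in tdT- CTL to 30.9 to 160.2 in tdT- BLZ945 and 34.7 to 84.5 in tdT+ BLZ945. The gate excluded cells with CD11c on their surface, which most dendritic cells carry. The part of these transcripts in the Lipa and Atp6v0d2 values was not tested. Gm2a, the cofactor for ganglioside breakdown, was at 269 ± 44.9 against 197 ± 15.1 CPM (log2FC 0.47 ± 0.15 (SE), adjusted p = 0.625). Ctss was at 5836 ± 798 against 4736 ± 357 CPM (log2FC 0.32 ± 0.12 (SE), adjusted p = 0.793), and both had overlapping groups. Tfeb was at 23.02 ± 8.34 against 35.9 ± 5.13 CPM (n = 5 each, log2FC -0.62 ± 0.33 (SE), adjusted p = 0.982). The mean log2(CPM + 1) of the pump subunits was 6.67 ± 0.096 in tdT- BLZ945 and 7.24 ± 0.21 in tdT- CTL with no overlap, but without Atp6v0d2 it was 8.33 ± 0.13 and 8.44 ± 0.10 with overlapping ranges. The libraries were therefore separated on this mean by 1 scarce gene. The median SE of a member's log2 fold change was 0.15.

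The difference between the BLZ945 effects in tdT- sdCAMs and in MG was tested as an interaction. Of the 43 members 0 were called by edgeR, with 2 at an unadjusted p below 0.05 (Lipa and Atp6v0d2) and 1 called by DESeq2, beside 0.0394% of the 12697 tested genes. Over all genes, 8.69% were at an unadjusted p below 0.05 and 0.569% were called by DESeq2. For Lipa the effect in sdCAMs minus that in MG was -0.74 ± 0.22 (SE) on the log2 scale with an adjusted p of 0.284. Atp6v0d2 had an adjusted p of 0.0988 with edgeR and 5.32e-04 with DESeq2, over counts of 0 to 19 per library in the MG groups.

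**Figure D4:**
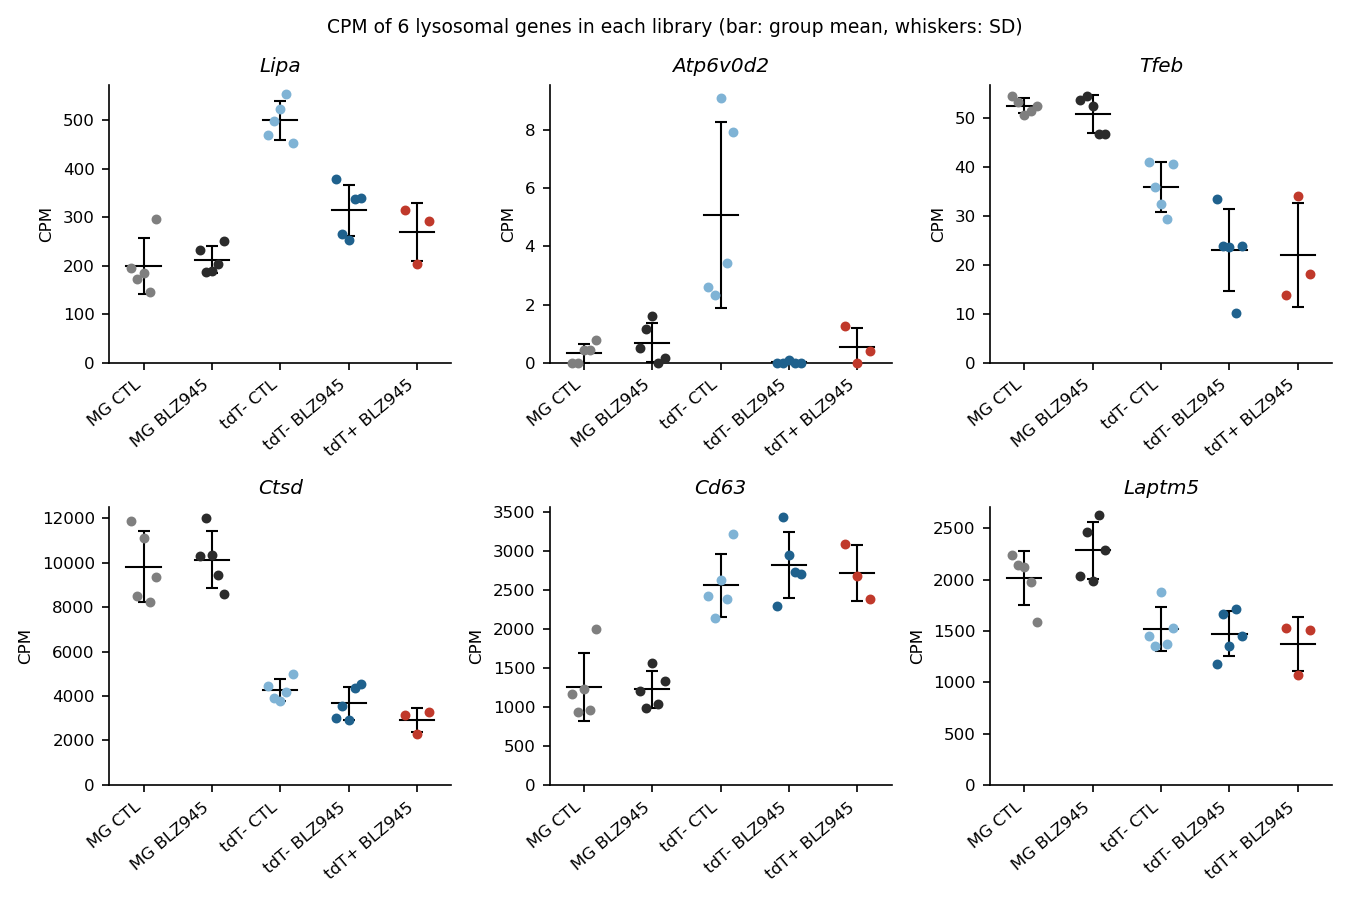
CPM (vertical axes, starting at 0, different scale in each panel) of 6 lysosomal genes in each library of the 5 groups (points), with the group mean (bar) and SD (whiskers, drawn down to 0 where they would pass below it). Lipa in tdT- CTL lies above all other groups, Atp6v0d2 exceeds 2 CPM in tdT- CTL only, Tfeb is highest in MG, and Ctsd and Cd63 separate the MG groups from the tdT- groups, whereas Laptm5 overlaps in CTL mice.

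In BLZ945 mice, tdT+ sdCAMs, which by their label descend from cells that expressed Ccr2, were compared with tdT- sdCAMs of the same animals or pools. Of the 43 members 0 were called by edgeR and 0 by DESeq2, with 3 at an unadjusted p below 0.05 (Atp6v0d2, Ctsf and Ctsl), beside 0.206% of the 13076 tested genes called. An unadjusted p below 0.05 was found for 6.91% of all genes, and 0.98% were called by DESeq2. By edgeR 27 genes were called, and with animal or pool as a block 1 of 12032 tested genes was called. No member had ranges that did not overlap, beside 3.4% of all genes. The median log2 fold change was -0.12 over the 43 genes and -0.020 over all genes. The member median was -0.055 without the F3 library of tdT+, -0.062 with the block and -0.077 with library totals. In the 3 pairs 11 members were lower throughout, beside 11.1% of all tested genes, 3 were higher, beside 13.5%, and 29 were mixed. Ctsl, a broad cysteine protease, had 1026, 962 and 1091 CPM in tdT+ and 1129, 1068, 1493, 1707 and 2163 CPM in tdT- BLZ945 (log2FC -0.58 ± 0.24 (SE), adjusted p = 0.671). Within the pairs F2, F3 and M2 the Ctsl difference was -0.058, -0.63 and -0.99 on the log2(CPM + 1) scale, so its size varied widely. Ctsf had 139, 101 and 127 CPM in tdT+ and 124, 188, 184, 218 and 167 CPM in tdT- BLZ945 (log2FC -0.54 ± 0.22 (SE), adjusted p = 0.667). For Atp6v0d2 there were 17 counts in the tdT+ libraries together against 1 in tdT-. Among the members lower in every pair, Cd63 had the most even differences, at -0.15, -0.14 and -0.18, and a log2 fold change of -0.073 ± 0.15 (SE, adjusted p = 0.990) in the fit.

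Against tdT- CTL sdCAMs, tdT+ sdCAMs likewise had 0 members called by edgeR, with 9 at an unadjusted p below 0.05 and 1 called by DESeq2, beside 0.283% of the 13076 tested genes. Over all genes, 7.44% had an unadjusted p below 0.05 and 1.21% were called by DESeq2. Ranges did not overlap for 7 members, 1 above and 6 below tdT- CTL, beside 8.16% of all genes. Lipa had 316, 203 and 292 CPM in tdT+, below all tdT- CTL libraries, and lay just outside the threshold (log2FC -0.89 ± 0.18 (SE), adjusted p = 0.0538). It passed with DESeq2 (adjusted p = 3.99e-04), with all 23 libraries in the model (0.0257), without a filter on low counts (0.0432) and with at least 10 counts in every library (0.0255). It did not pass with library totals only (0.0507), without the F2 libraries of BLZ945 mice (0.0678) or without any 1 of the 8 libraries (0.0779 to 0.288). This comparison and that of tdT- BLZ945 with tdT- CTL share the CTL libraries. Lipa stood at 500.0 ± 40.1 (n = 5), 315 ± 52.8 (n = 5) and 270.02 ± 59.4 CPM (n = 3) in tdT- CTL, tdT- BLZ945 and tdT+ BLZ945. Ctsd was at 2901 ± 542 against 4264 ± 494 CPM (log2FC -0.56 ± 0.18 (SE), adjusted p = 0.432). Ctsc was at 5236 ± 364 against 6541 ± 733 CPM (log2FC -0.32 ± 0.15 (SE), adjusted p = 0.645), and Mcoln1 was at 38.6 ± 0.758 against 66.5 ± 13.4 CPM (log2FC -0.79 ± 0.31 (SE), adjusted p = 0.599). None of these 3 overlapped. Gm2a was the member above tdT- CTL, at 270.5 ± 47.7 against 197 ± 15.1 CPM (log2FC 0.45 ± 0.17 (SE), adjusted p = 0.540).

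Other genes of the lysosome, a list of 62 symbols in the table of which 60 were tested in these comparisons, were read in the same fits. In CTL mice 27 were higher and 12 lower in tdT- sdCAMs than in MG, and in BLZ945 mice 25 and 13 (21 and 13, and 19 and 18, with scaling by library totals). Over all tested genes, as given above, 15.3% were higher and 10.3% lower in CTL mice, and 18.3% and 14.1% in BLZ945 mice. Among the further proton pump subunits and accessory genes, 8 of 13 tested were higher and 3 lower in CTL mice, with log2 fold changes of -2.80 to 1.10. In BLZ945 mice 9 were higher and 3 lower, with log2 fold changes of -3.33 to 0.880. Lower in sdCAMs was Cst7, the cathepsin inhibitor cystatin F, at 3.66 ± 1.45 against 64.8 ± 8.67 CPM (log2FC -4.16 ± 0.52 (SE), adjusted p = 2.42e-06). Igf2r, the large mannose 6-phosphate receptor that sorts hydrolases, was at 0.463 ± 0.496 against 4.74 ± 3.85 CPM (log2FC -3.33 ± 1.09 (SE), adjusted p = 0.0279). The highest log2FC was that of Tfec, a relative of Tfeb expressed in macrophages, at 45.8 ± 13.9 against 1.37 ± 1.31 CPM (log2FC 5.05 ± 0.68 (SE), adjusted p = 5.90e-06). Acp5, the tartrate-resistant acid phosphatase, was at 11.7 ± 5.66 against 0.442 ± 0.269 CPM (log2FC 4.69 ± 0.76 (SE), adjusted p = 6.48e-05). Hgsnat, an acetyltransferase of heparan sulfate breakdown, was at 529.8 ± 194 against 79.2 ± 8.51 CPM (log2FC 2.74 ± 0.22 (SE), adjusted p = 3.04e-09). The difference of Tfec was thus opposite to that of Tfeb, which was called in BLZ945 mice. By edgeR 0 of the 60 or 58 tested genes were called in BLZ945 against CTL in tdT- sdCAMs or MG, with 3 and 6 at an unadjusted p below 0.05 and 0 and 1 (Galc) called by DESeq2. By edgeR, Hgsnat was the single listed gene called in tdT+ BLZ945 against tdT- CTL, at 172 ± 47.4 against 529.8 ± 194 CPM (log2FC -1.62 ± 0.30 (SE), adjusted p = 0.0244). It was also called by DESeq2, but not with the replicate label as a block, which pairs different animals here. Against tdT- BLZ945 it was called lower by DESeq2 and not by edgeR (log2FC -1.06 ± 0.29 (SE), adjusted p = 0.350).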

How the data were processed

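The authors deposited a table of raw counts per gene symbol for 23 RNA-seq libraries, made with SMART-Seq amplification from sorted cells. Per the submitters' processing notes, bcl2fastq (v2.20), STAR (v2.7.11a) and featureCounts (v2.0.6) were used for demultiplexing, alignment and counting, and DESeq2 (v1.46.0) for the authors' own tests, which were not used here. The genome build was not clearly given in the sources used here, and neither was the treatment of reads that match several genes. The table held 33280 genes, of which 9482 were at 0 in every library, and library totals of 9433960 to 13276081 counts set the precision. No pair of libraries agreed within counting noise (closest pair 15.75 chi-square per gene), and 0 columns were left unused.

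From these counts, CPM were computed with TMM factors over the 23 libraries (edgeR v4.0.16, R v4.3.3), and role means as log2(CPM + 1). CPM per kb used the summed exon length of the gene in GENCODE vM21. Genes were kept by filterByExpr and tested with the edgeR quasi-likelihood test on 10 MG libraries, 13 sdCAM libraries, or 20 libraries for MG against tdT- sdCAMs and the interaction, with Benjamini-Hochberg adjustment over all genes tested. A call is an adjusted p below 0.05. Figures and other values were made with Python v3.11.15, scipy v1.17.1 and matplotlib v3.10.9. The pipeline was tested on simulated data. Alternatives were DESeq2 (v1.42.0), library totals, no filter or at least 10 counts in every library, all 23 libraries in 1 model, animal or pool as a block, pseudocounts of 0.1 and 5, and leaving out each library. Shares called by DESeq2 are of the 17025 to 17911 genes entered, including those it gave no adjusted p. Leaving out the F2 libraries of BLZ945 mice was added after seeing the data.

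MG and sdCAM libraries with the same label within a treatment came from the same animal or pool. The correlations of their deviations from the group means were 0.078 to 0.19 for MG and tdT- CTL, 0.033 to 0.18 for MG and tdT- BLZ945, and 0.042 to 0.089 for tdT- and tdT+ BLZ945. Between treatments a label names different animals, and the correlations were 0.0080 to 0.19 for MG CTL and MG BLZ945, -0.083 to 0.046 for the tdT- groups, and -0.054 to 0.024 for tdT- CTL and tdT+. The pairing thus rests on the shared animal or pool, not on these values. The members, the lists and the tests were chosen with earlier results of these data known. Every called member was to be named with its fold change, SE and adjusted p. Where more than 10 were called, this held for the 3 highest and 3 lowest of each role, with ranges for the rest, and other lysosomal genes were limited to the 3 highest and 3 lowest, of which 1 is not reported here. Members that missed the test were chosen for description after their values were seen.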

Additional observations from a re-analysis of the deposited data

Results flagged for a closer look

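In each group of 5 libraries the highest and lowest library were compared with the rest (Dixon's gap test at the 95% level). Of 196 sets of 5 values, 16 had a library that stood apart, and chance alone gives about 1 in 20 sets. They were spread over 10 libraries, with at most 3 in 1 library, MG CTL M2. In MG CTL M2 the level was 3626 CPM for Ctsl (2153 to 2330.0 in the other 4), 2004 CPM for Cd63 (932 to 1233) and 420.0 CPM for Man2b1 (617 to 631). Npc1, the membrane cholesterol transporter, had a high library in 3 groups, with 88.6 CPM in MG CTL F1 (69.4 to 72.6 in the others), 130.0 CPM in tdT- CTL F3 (74.3 to 88.1) and 197 CPM in tdT- BLZ945 F2 (66.3 to 88.1).

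In tdT- CTL, Grn was low in M2 at 2707 CPM (3095 to 3238 in the others), Lamp1 low in F3 at 2028 CPM (2324 to 2413) and the scarce Ctse high in F2 at 3.80 CPM (0.601 to 1.38). In tdT- BLZ945, M1 was high for Mcoln1 at 89.4 CPM (33.3 to 46.5) and for Atp6ap1 at 1051 CPM (828.8 to 854), and F2 was high for Cd68 at 4221 CPM (2406 to 2890.0). The F1 library of tdT- BLZ945 had a low mean log2(CPM + 1) of the proteases, 9.16 (9.42 to 9.52 in the others), and in the same library 5 monocyte markers summed to 224 CPM (median of the group 22.7) and 4 neutrophil markers to 74.1 CPM. The gate excluded cells with surface Ly6C or Ly6G, and the part of these transcripts in that mean was not tested. The remaining 3 rest on few counts, with Ctse at 7.59 CPM in tdT- BLZ945 F3 (0 to 0.882), Ctsk at 0.505 CPM in MG BLZ945 F1 (0 to 0.0883) and Atp6v0d2 at 0.0904 CPM, 1 count, in tdT- BLZ945 F3 (0 in the others).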

How the results depend on the processing

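The counts of members called in tdT- sdCAMs against MG stayed within 28 and 33 under DESeq2, library totals, both filters, the model of all 23 libraries and without the BLZ945 F2 libraries. Leaving out 1 library gave 28 to 31 calls in CTL mice and 27 to 30 in BLZ945 mice, and 0 to 0 calls in the other 4 comparisons and the interaction. DESeq2 called 1 member in MG BLZ945 against CTL (Ctse), 2 in tdT- BLZ945 against CTL (Lipa and Atp6v0d2), 1 in tdT+ BLZ945 against tdT- CTL (Lipa) and 1 in the interaction (Atp6v0d2), where edgeR called 0. The model of all 23 libraries called 1 in tdT- BLZ945 against CTL and 1 in tdT+ against tdT- CTL, and in the latter no filter and the filter of 10 counts also gave 1 each. The cause was not tested. Over all alternatives and each left-out library, called members had 1017 values, of which 980 stayed past the threshold, 37 did not (24 with 1 library left out) and 0 changed sign.

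With animal or pool as a replicate block, 30 members were called in CTL mice and 29 in BLZ945 mice, where Ctsk and Neu1 were lost and Ctsh gained, and the mean differences were 0.31 and 0.10. The paired mean of tdT+ minus tdT- BLZ945 was -0.081. The block gave 0 calls in the other 4 comparisons and the interaction, and in those between treatments the label pairs different animals (Lipa in tdT+ against tdT- CTL had an adjusted p of 0.188).

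The mean log2(CPM + 1) of the 43 genes differed by 0.31 between tdT- CTL and MG CTL, by 0.19 with library totals, 0.40 with a pseudocount of 0.1 and 0.26 with 5. For tdT- BLZ945 against MG BLZ945 it was 0.10, and -0.036 with library totals, which moved the median log2 fold change of all genes from -0.018 to -0.17. For tdT- BLZ945 against CTL it was -0.11, and -0.20 with a pseudocount of 0.1. Leaving out 1 library gave 0.30 to 0.33, 0.075 to 0.13 and -0.13 to -0.075 for these, 0.085 to 0.12 for MG BLZ945 against CTL, -0.11 to -0.036 for tdT+ against tdT- BLZ945 and -0.21 to -0.14 for tdT+ BLZ945 against tdT- CTL. Only 3 tdT+ libraries were at hand, and Ctse, Ctsk and Atp6v0d2 had too few counts for stable folds.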
